A study of Lotus japonicus with 24 samples.

Results

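The roots of a Lotus japonicus asparagine synthetase mutant, Ljasn1-2, were compared with wild-type (WT) roots when both were fed inorganic nitrogen. The comparison takes 6 of the 24 RNA-seq libraries of the series, 3 of Ljasn1-2 and 3 of WT, and was made over all 30243 genes of the table, of which 16172 reached at least 1 FPKM (reads on the gene divided by its length and by the depth of the library) in at least 3 of the 6 libraries and were tested. Both genotypes have the Gifu B-129-S9 background. Ljasn1-2 is homozygous for a LORE1 retrotransposon in the eighth exon of LjASN1, and it stands for 1 insertion line. Seeds of such a line may carry 3 other insertions, 1 in an exon and 2 in introns, and the plants used were genotyped to be free of them. Nitrogen-fed (NS) plants of both genotypes received 5 mM ammonium nitrate and 3 mM potassium nitrate and were not inoculated. Each replicate was the pooled root tissue of 10 plants from 2 pots, so that p-values describe the spread between such pools. The sources differ on the harvest of NS plants, which is put at 26 days after planting and 8 h of light in the methods and at 40 days and 4 h of light in the design text. The rest of the series holds the shoots of NS plants and the roots and shoots of symbiotic (S) plants, which were inoculated with Mesorhizobium loti in a solution without nitrogen. By the methods, S plants were harvested at 37 days after planting, at the growth stage of the NS plants. Age and nutrition can therefore not be told apart between NS and S plants.

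Asparagine synthetase transfers the amide group of glutamine to aspartate and so makes asparagine, an amino acid with a high ratio of nitrogen to carbon. In temperate legumes such as Lotus, asparagine is the main form in which nitrogen assimilated in roots or nodules travels through the xylem to the shoot, where asparaginases release it again. Ammonium reaches asparagine through glutamine synthetase and glutamate synthase, and nitrate first through nitrate and nitrite reductases.

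The position of the insertion is marked by the pair of genotyping primers that flank it, which are shown because they define the allele. They are written 5′ to 3′, and no base in them is singled out. Both held 12 G or C bases, over 24 bases in the forward and 25 bases in the reverse primer.
Ljasn1-2geno_F: ccttgcggcatgtttctgtgtgaa
Ljasn1-2geno_R: tggcaaccacaaaagctgctgaaca

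The 3 Ljasn1-2 libraries held 61319402, 41230242 and 40229153 reads on genes, and the 3 WT libraries 48079520, 41023604 and 44124200 reads. Libraries with the same replicate number had an r between 0.983 and 0.986 across genotypes on log2 values. Between libraries of 1 genotype, r ran from 0.951 to 0.986 within Ljasn1-2 and from 0.963 to 0.987 within WT. The replicate number carried 69.9% of the variance among the 6 libraries, and the genotype 19.9%. Results are therefore given from the fit without the replicate number and from the same fit with the number as a block. Both give the same log2 fold change, and differ in its standard error and p-value.

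LjASN1 itself (LotjaGi1g1v0118200, LjG1.1 assembly, chromosome 1, 18678532 to 18685507, plus strand) stood at 52.7, 65.0 and 119 FPKM in Ljasn1-2 roots, against 653, 695 and 563 FPKM in WT roots. The libraries of the genotypes did not overlap, with means of 78.9 ± 35.2 FPKM in Ljasn1-2 and 637 ± 67.3 FPKM in WT (SD, n = 3 each). The fall on the log2(FPKM + 1) scale was -3.08 (SE 0.31, limma adjusted p = 0.0378, and adjusted p = 0.00256 with the block). Without the block, leaving out any library other than Ljasn1-2 replicate 3 took the adjusted p to between 0.111 and 0.429, at a fold change of -3.17 to -2.84. LjASN1 reads were thus still present in the mutant. Since the counts cover the whole gene, they do not show whether these transcripts run through the insertion.

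LjASN2 (LotjaGi6g1v0130800) was the asparagine synthetase gene with the highest level in each of the 6 NS root libraries. It stood at 1097, 1077 and 596 FPKM in Ljasn1-2, against 832, 888 and 715 FPKM in WT. These ranges overlapped, and the log2 difference of 0.14 (SE 0.14 with the block, adjusted p = 0.604) did not pass the test. LjASN3 (LotjaGi6g1v0088100) was low in both genotypes, at 2.43, 2.62 and 2.63 FPKM in Ljasn1-2 and 2.72, 2.35 and 2.20 FPKM in WT, with a difference of 0.06 (SE 0.10, adjusted p = 0.775 with the block). Summed over the 6 genes described as asparagine synthetases, the level was 1153, 1146 and 719 FPKM in Ljasn1-2 and 1489, 1587 and 1282 FPKM in WT.

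Without the block, 7 of the 16172 genes passed an adjusted p of 0.05 (0.0433%), 3 higher (0.0186%) and 4 lower (0.0247%) in Ljasn1-2, and 803 had an unadjusted p under 0.05. All 7 passed with the block too, and the genotypes did not overlap in any of them, as in 10.3% of all genes tested. The test itself favours genes without overlap. Leaving out Ljasn1-2 replicate 1 or 2, or WT replicate 1 or 3, left 0 calls, leaving out WT replicate 2 left 3, and leaving out Ljasn1-2 replicate 3 gave 9. The gene of smallest p encodes a predicted GPI-anchored protein (LotjaGi5g1v0220200), a class of proteins held at the cell surface by a lipid. It stood at 11.5, 10.1 and 6.78 FPKM in Ljasn1-2, against 0.288, 0.202 and 0.212 FPKM in WT (log2 fold change 3.06, adjusted p = 0.00786). A gene for plastidic glucose transporter 4 (LotjaGi2g1v0074800), a carrier of glucose across the plastid envelope, stood at 22.7, 22.5 and 19.9 FPKM in Ljasn1-2, against 6.52, 5.90 and 6.42 FPKM in WT (1.64, adjusted p = 0.00959). The third gene that rose, LotjaGi4g1v0295400_LC, has no Swiss-Prot name and stood at 10.4, 15.7 and 13.2 FPKM in Ljasn1-2 and 1.12, 2.02 and 0.947 FPKM in WT (2.59, adjusted p = 0.0115).

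Of the 4 genes that fell, LjASN1 is the only one described as a gene of nitrogen metabolism. The mitochondrial external alternative NAD(P)H-ubiquinone oxidoreductase B2 (LotjaGi6g1v0339200) oxidises NADH of the cytosol without moving protons. Its gene stood at 0.372, 0.634 and 0.638 FPKM in Ljasn1-2, against 4.58, 4.77 and 4.13 FPKM in WT (-1.83, adjusted p = 0.00897). The other 2 genes have no Swiss-Prot name. LotjaGi1g1v0431600 stood at 0.648, 1.11 and 0.674 FPKM in Ljasn1-2 and 12.2, 7.15 and 12 FPKM in WT (-2.63, adjusted p = 0.0115), and LotjaGi4g1v0069500_LC at 0, 0.108 and 0.117 FPKM in Ljasn1-2 and 2.24, 1.77 and 2.33 FPKM in WT (-1.53, adjusted p = 0.0115). The suffix _LC marks gene models that the annotation holds to be of low confidence.

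**Figure D1:**
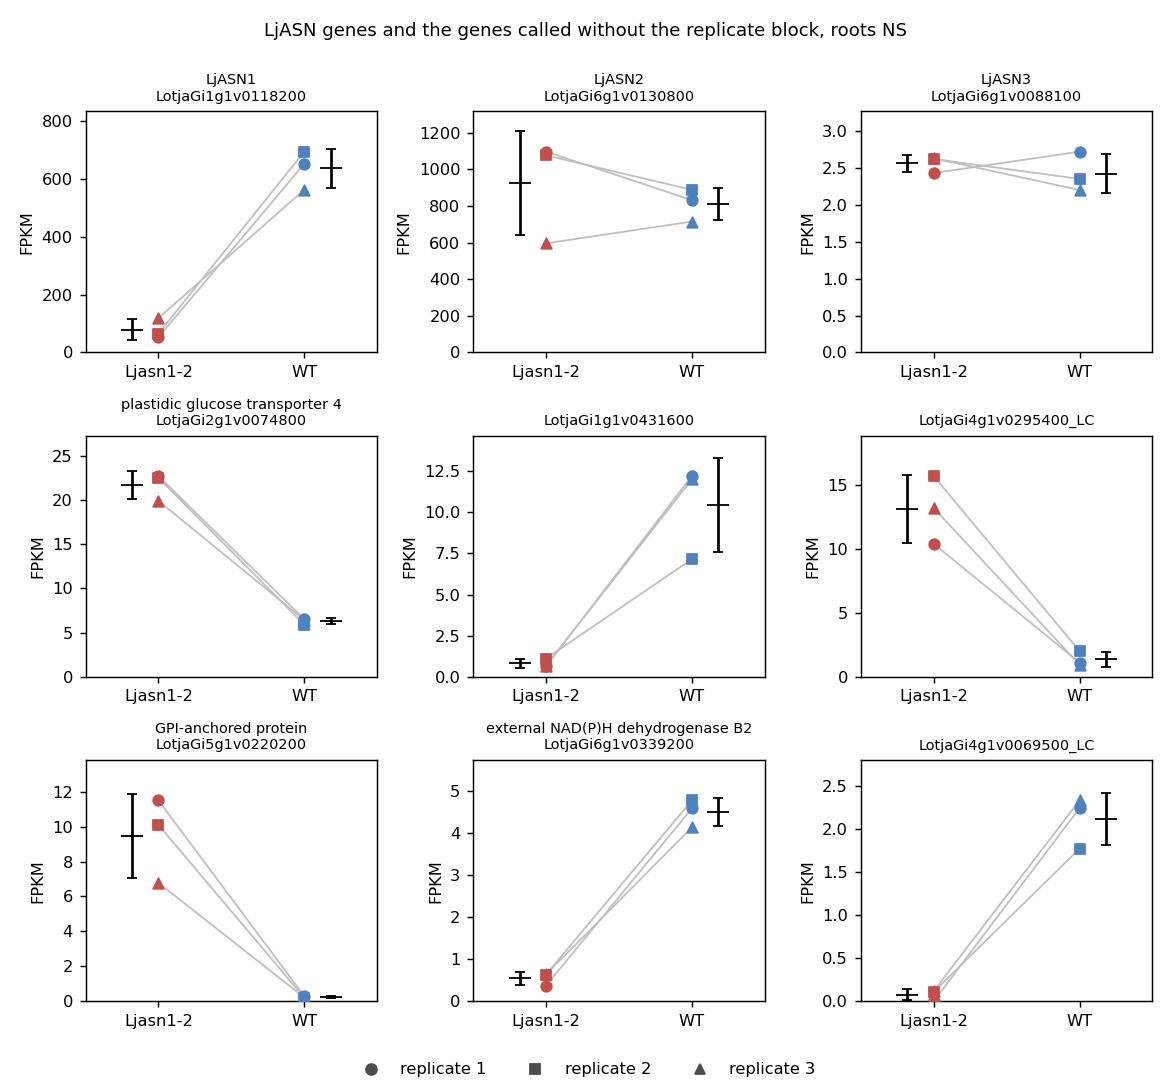
Level in FPKM (linear axes from 0) of the 3 LjASN genes and of the 6 other genes that passed the test without the replicate block, in Ljasn1-2 (left) and WT (right) NS roots. Points are libraries, lines join the same replicate number, and bars are the mean and SD of 3 libraries. The genotypes overlap for LjASN2 and LjASN3 and are apart for the other 7 genes.

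With the replicate block, 723 genes passed (4.47% of those tested), 336 higher in Ljasn1-2 (2.08%) and 387 lower (2.39%). The counts of all gene lists below are to be read beside these shares. All 723 moved the same way in the 3 pairs, against 44.7% of all genes tested, and the genotypes did not overlap in 367 of them, against 1661 of all genes tested (10.3%). The fit with the block tests the differences within pairs, so both counts follow in part from the selection and add no support. Changes were mostly below 2-fold, with a median log2 fold change of 0.55 among the genes that rose and -0.64 among those that fell, whereas the median over all genes was 0.01. At least 2-fold changes were seen for 32 genes that rose and 59 that fell, and at least 4-fold changes for 4 and 3. Called genes were of moderate level, with a median of 13.7 FPKM for those that rose and 10.8 FPKM for those that fell, against 7.59 FPKM for all genes tested. From here on, "rose" and "fell" refer to the fit with the block, adjusted p-values are limma's with the block, and none of these genes passed without the block apart from the 7 above. Leaving out replicate number 1, 2 or 3 of both genotypes gave 603, 511 and 595 genes, and 287 of the 723 passed in all 3 of these fits.

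The largest increases after the GPI-anchored protein and LotjaGi4g1v0295400_LC belonged to a gene for a probable polygalacturonase (LotjaGi4g1v0429500), an enzyme that cuts pectin. It stood at 13.9, 16.5 and 46.4 FPKM in Ljasn1-2, against 3.20, 2.89 and 4.23 FPKM in WT (2.39, SE 0.23, adjusted p = 0.00422, and 0.230 without the block). A gene for the late embryogenesis abundant protein Lea5 (LotjaGi4g1v0339500), one of a family linked to drying and other stresses, stood at 292, 227 and 196 FPKM in Ljasn1-2, against 82.6, 67.0 and 88.0 FPKM in WT (1.57, SE 0.13, adjusted p = 0.00285). Of all genes in this group of 12 it had the highest level. Alpha-L-arabinofuranosidase 1 (LotjaGi1g1v0655300), which takes arabinose off cell wall polymers, followed at 53.3, 48.9 and 72.1 FPKM in Ljasn1-2, against 18.9, 19.1 and 32 FPKM in WT (1.30, SE 0.08, adjusted p = 0.00163). Early nodulin-like protein 2 (LotjaGi3g1v0097500) rose by 1.33 and Protein CLT3 (LotjaGi1g1v0051100), which in Arabidopsis belongs to a family of plastid envelope carriers of glutathione, by 1.19, both at under 5 FPKM. The rest of the 12 included the plastidic glucose transporter 4 gene given above (1.64) and a Pol polyprotein gene, described with the genes read in 1 genotype. Also in this group were LotjaGi1g1v0056500_LC, LotjaGi5g1v0120400 and LotjaGi4g1v0059100_LC, which rose by 1.48, 1.46 and 1.16.

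Among the 12 largest decreases, again without genes of uncertain decimal point, and after LjASN1 and LotjaGi1g1v0431600, were genes for regulators. NFXL1 (LotjaGi4g1v0465300), a zinc finger protein that in Arabidopsis takes part in responses to stress, stood at 3.26, 3.43 and 6.51 FPKM in Ljasn1-2, against 22.6, 21.8 and 19.0 FPKM in WT (-2.08, SE 0.19, adjusted p = 0.00387, and 0.0523 without the block). The transcription factor ERF017 (LotjaGi4g1v0322000) stood at 8.49, 5.44 and 8.23 FPKM in Ljasn1-2, against 50.4, 31.2 and 17.3 FPKM in WT (-1.92, SE 0.26, adjusted p = 0.0111). WT libraries varied more than the mutant ones for ERF017, and the lowest WT value was still above the highest mutant value. The U-box ubiquitin ligase PUB21 (LotjaGi6g1v0054100) stood at 23.4, 12.4 and 24.1 FPKM in Ljasn1-2, against 94.1, 60.3 and 44.0 FPKM in WT (-1.67, SE 0.23, adjusted p = 0.0127), and CCR4-associated factor 1 homolog 9 (LotjaGi3g1v0473600), of the complex that shortens poly(A) tails, at 69.4, 30.7 and 27.6 FPKM in Ljasn1-2, against 181, 126 and 71.9 FPKM in WT (-1.57, SE 0.13, adjusted p = 0.00285). The F-box protein PP2-B15 (LotjaGi1g1v0769000), Protein ALP1-like (LotjaGi6g1v0228700), a lectin of the bark agglutinin type (LotjaGi5g1v0257900) and a probable mannitol dehydrogenase (LotjaGi2g1v0329400) fell by 1.74, 1.61, 1.57 and 1.56.

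**Figure D2:**
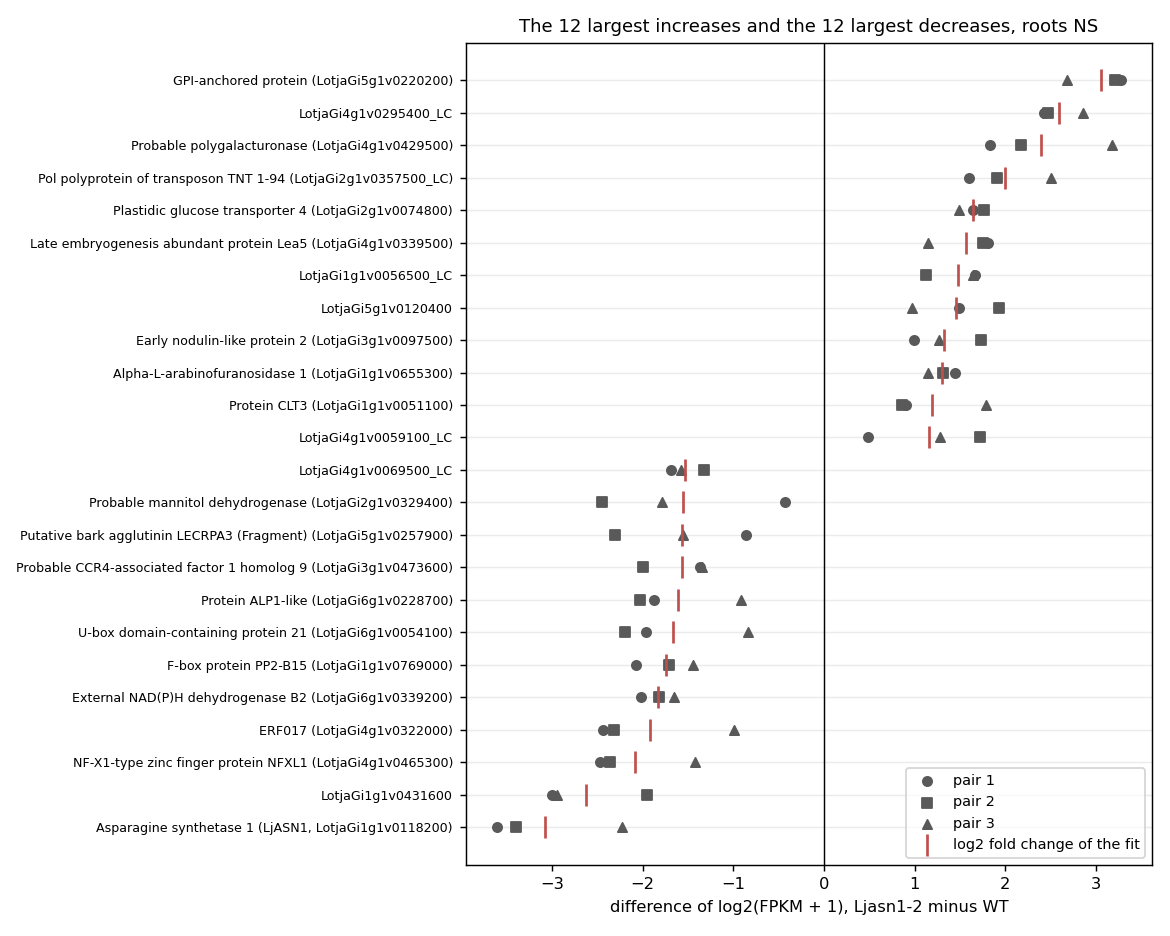
Difference of log2(FPKM + 1), Ljasn1-2 minus WT, for the 12 largest increases and the 12 largest decreases among genes that passed with the replicate block and whose libraries do not overlap, without genes whose decimal point can stand in more than 1 place (horizontal axis). Symbols are the 3 pairs of libraries with the same number and the red line is the fitted log2 fold change. It runs between -3.08 for LjASN1 and 3.06 for the GPI-anchored protein, and for most of the genes that fell, such as ERF017 and NFXL1, pair 3 shows the smallest change.

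Nitrogen assimilation genes were mostly not called. None of the 17 tested genes of ammonium assimilation passed, and the most abundant of them, a cytosolic glutamine synthetase (LotjaGi6g1v0055300), stood at 886, 842 and 451 FPKM in Ljasn1-2 and 796, 826 and 612 FPKM in WT (-0.09, SE 0.13, adjusted p = 0.740). None of the 4 tested ammonium transporter genes passed either, among them AMT1;1 (LotjaGi6g1v0009500) at 69.6, 61.5 and 38.6 FPKM in Ljasn1-2 and 64.7, 72.1 and 55.2 FPKM in WT (-0.21, SE 0.12, adjusted p = 0.353). In both genes, replicate 3 of each genotype was the lowest. Of 4 asparaginase genes, 1 fell, LotjaGi5g1v0031100, at 133, 137 and 119 FPKM in Ljasn1-2 and 164, 186 and 149 FPKM in WT (-0.36, SE 0.07, adjusted p = 0.0460).

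All 5 tested genes of nitrate uptake and reduction had a log2 fold change below 0, with a median of -0.23 against 0.01 over all genes, and 1 of them fell. The list's median was 0.04 in pair 1, -0.004 in pair 2 and -0.57 in pair 3. The gene that fell was that for the high-affinity nitrate transporter NRT2.5 (LotjaGi4g1v0155900), which in Arabidopsis is the form of nitrogen-starved plants, at 2.17, 1.56 and 1.28 FPKM in Ljasn1-2 and 3.37, 2.89 and 2.40 FPKM in WT (-0.55, SE 0.09, adjusted p = 0.0207). In the NRT1/PTR family of nitrate and peptide carriers, 1 gene rose (3.03%) and 2 fell (6.06%) of 33 tested. NPF3.1 (LotjaGi1g1v0658100) stood at 8.65, 8.33 and 7.51 FPKM in Ljasn1-2 and 13.7, 13.3 and 12.8 FPKM in WT (-0.64, SE 0.07, adjusted p = 0.00759), with little spread within either genotype. NPF5.7 (LotjaGi3g1v0222800) fell by 0.59 and NPF5.9 (LotjaGi2g1v0252200) rose by 0.50. Of 49 amino acid transporter genes, 28 had a log2 fold change above 0 and 21 below, with a median of 0.07. Among the 49, 3 fell (6.12%, beside 2.39% of all genes) and none rose. They were amino acid permease 3 (LotjaGi1g1v0265200), a carrier of amino acids into cells, which stood at 5.58, 6.84 and 4.54 FPKM in Ljasn1-2 against 9.78, 10.1 and 9.97 FPKM in WT (-0.73, SE 0.11, adjusted p = 0.0149), cationic amino acid transporter 5 (LotjaGi6g1v0244700, -0.56) and lysine histidine transporter-like 6 (LotjaGi2g1v0279900, -0.39).

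Of the 26 tested genes of glycine, serine and glyoxylate metabolism, 4 rose (15.4%, beside 2.08% of all genes) and none fell. Serine-glyoxylate aminotransferase (LotjaGi6g1v0183300), a peroxisomal enzyme of photorespiration that in plants also uses asparagine as an amino donor, stood at 7.17, 5.47 and 4.79 FPKM in Ljasn1-2, against 2.86, 2.61 and 2.54 FPKM in WT (0.88, SE 0.10, adjusted p = 0.00714). Alanine-glyoxylate aminotransferase 2 homolog (LotjaGi1g1v0452400), which forms glycine from glyoxylate, stood at 81.4, 62.2 and 53.9 FPKM in Ljasn1-2, against 39.6, 38.8 and 36.4 FPKM in WT (0.75, SE 0.10, adjusted p = 0.0120). The other 2 were the H protein of the glycine cleavage system (LotjaGi2g1v0415700, 0.56) and a mitochondrial serine hydroxymethyltransferase (LotjaGi2g1v0330200, 0.70), which together turn glycine into serine. In sulphate assimilation, adenylyl-sulfate kinase (LotjaGi4g1v0095300), which makes the sulphate donor PAPS, rose to 28.3, 28.7 and 36.7 FPKM in Ljasn1-2, against 14.3, 15.5 and 19.9 FPKM in WT (0.88, SE 0.07, adjusted p = 0.00269), while sulfate transporter 3.1 (LotjaGi1g1v0716100) fell by 0.59, and the other 27 of 29 tested genes did not pass.

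The list of alternative respiration covers the pathway that passes electrons to oxygen with little or no proton pumping. It also takes genes described as uncoupling proteins. Of its 15 tested genes, 12 had a fold change below 0, beside 7517 of all 16172 genes tested, and 3 of the 15 fell. Beside dehydrogenase B2, these were the internal alternative NAD(P)H dehydrogenase A1 (LotjaGi4g1v0050800), at 0.842, 0.537 and 0.622 FPKM in Ljasn1-2 and 2.88, 2.73 and 1.67 FPKM in WT (-1.02, SE 0.13, adjusted p = 0.00927), and ubiquinol oxidase 1 (LotjaGi2g1v0344500), the alternative oxidase, at 0.596, 0.467 and 0.721 FPKM in Ljasn1-2 and 1.38, 1.28 and 1.30 FPKM in WT (-0.54, SE 0.10, adjusted p = 0.0315). All 3 were below 5 FPKM in every NS root library, and a pseudocount of 1 FPKM understates the change of such genes. The summed level over the list was 339, 246 and 179 FPKM in Ljasn1-2 and 342, 335 and 250 FPKM in WT, of which these 3 genes held little.

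Of 70 genes of sucrose breakdown and sugar transport, 7 rose (10%) and none fell. Beside the plastidic glucose transporter they included a trehalose-phosphate phosphatase (LotjaGi1g1v0241200), which removes the sugar signal trehalose 6-phosphate and stood at 15.3, 15.1 and 11 FPKM in Ljasn1-2, against 6.15, 7.15 and 6.78 FPKM in WT (0.93, SE 0.11, adjusted p = 0.00898), and a cell wall invertase (LotjaGi1g1v0367300, 12.3, 9.95 and 10.3 FPKM in Ljasn1-2, against 7.89, 6.32 and 6.90 FPKM in WT, 0.56), which splits sucrose outside the cell. Sugar transporter ERD6-like 7 (LotjaGi1g1v0731900) rose by 0.85. Of 136 genes with inositol or arabinose in their description, 5 rose (3.68%) and 2 fell (1.47%). This list goes beyond metabolism, and a phosphatidylinositol 4-kinase was among those that rose and a fasciclin-like arabinogalactan protein among those that fell. Inositol oxygenase 1 (LotjaGi3g1v0372900), which opens a route from inositol to cell wall sugars, rose to 147, 166 and 138 FPKM in Ljasn1-2, against 89.6, 104 and 97.6 FPKM in WT (0.62, SE 0.08, adjusted p = 0.00962).

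Of 119 genes of ethylene synthesis and of the ERF family, 15 fell (12.6%) and 4 rose, of 48 U-box ubiquitin ligase genes 8 fell (16.7%) and none rose, and of 106 genes described as ZAT, C2H2 or other zinc finger proteins 8 fell (7.55%) and 2 rose, beside 2.39% of all genes that fell. NFXL1, of the NF-X1 type, is one of the zinc finger genes that fell. Over all tested members, 69 zinc finger genes had a log2 fold change above 0 and 37 below, with a median of 0.05, and 21 U-box genes had one above 0 and 27 below, with a median of -0.01. PUB22 (LotjaGi1g1v0737600), which in Arabidopsis dampens immune signalling, stood at 20.3, 13.5 and 11.6 FPKM in Ljasn1-2, against 48.8, 37.1 and 29.9 FPKM in WT (-1.30, SE 0.07, adjusted p = 0.00111). ZAT11 (LotjaGi5g1v0070300) stood at 4.29, 2.86 and 2.20 FPKM in Ljasn1-2, against 16, 7.89 and 5.31 FPKM in WT (-1.29, SE 0.13, adjusted p = 0.00612). ZAT10 (LotjaGi1g1v0360800), a repressor induced by cold, salt and wounding in Arabidopsis, was the most abundant of these 3, at 169, 121 and 106 FPKM in Ljasn1-2, against 292, 236 and 154 FPKM in WT (-0.76, SE 0.10, adjusted p = 0.00995). In each of these genes replicate 1 was highest and replicate 3 lowest in both genotypes, and without the block their adjusted p lay between 0.320 and 0.939.

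The gene for ACC synthase 3 (LotjaGi4g1v0091800), which makes the precursor of ethylene, fell to 0.602, 0.409 and 0.321 FPKM in Ljasn1-2, against 1.61, 2.22 and 1.42 FPKM in WT (-0.92, SE 0.12, adjusted p = 0.0102). The factor DREB1D (LotjaGi4g1v0218900), of a group induced by cold, fell by 1.15 and ERF012 (LotjaGi1g1v0257900) by 0.88, while RAP2-1 (LotjaGi5g1v0026800), also of the DREB group, rose by 0.64. Of 54 WRKY factor genes, 2 fell (3.7%) and 1 rose (1.85%), beside 2.39% and 2.08% of all genes. WRKY40 (LotjaGi3g1v0349800) stood at 56.7, 24.7 and 19.8 FPKM in Ljasn1-2 and 75.2, 39.1 and 38.3 FPKM in WT (-0.65, SE 0.10, adjusted p = 0.0201), ranges that overlap, WRKY53 (LotjaGi3g1v0393500) fell by 0.67 and WRKY14 (LotjaGi1g1v0759200) rose by 0.51. Of 132 heat shock and DnaJ genes, 5 fell (3.79%) and 2 rose (1.52%), led by a DnaJ chaperone (LotjaGi4g1v0033400) at 10.6, 4.96 and 4.43 FPKM in Ljasn1-2 and 26.3, 19.9 and 10.9 FPKM in WT (-1.39, SE 0.13, adjusted p = 0.00422). None of 46 jasmonate and lipoxygenase genes passed.

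Of 194 genes for pathogenesis-related and defence proteins, 5 fell and 3 rose, shares near those of all genes. The gene for an enzyme that methylates benzoic and salicylic acid (LotjaGi2g1v0387200) stood at 3.55, 5.05 and 1.93 FPKM in Ljasn1-2, against 12.2, 14.7 and 5.06 FPKM in WT (-1.32, SE 0.11, adjusted p = 0.00279), and that for disease resistance response protein 206 (LotjaGi4g1v0070500) fell by 0.79. Thaumatin-like proteins went both ways. Thaumatin-like protein 1 (LotjaGi4g1v0128800) rose by 0.84, whereas thaumatin-like protein 1a (LotjaGi1g1v0685100) was fitted at -1.82, with 2.72, 7.93 and 8.64 FPKM in Ljasn1-2 and 16.1, 21.2 and 36.4 FPKM in WT. The decimal point of this last gene can be placed in more than 1 way, so that its level is uncertain.

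Among genes of specialised metabolism, 6 of 79 for flavonoid and isoflavonoid synthesis (7.59%) and 4 of 78 for UDP-glycosyltransferases (5.13%) fell and none rose. Of all genes, 2.39% fell and 2.08% rose. Phenylalanine ammonia-lyase 1 (LotjaGi3g1v0071500), the entry enzyme of phenylpropanoid synthesis, stood at 30.4, 11.8 and 8.36 FPKM in Ljasn1-2 and 47.2, 31.0 and 22.1 FPKM in WT (-1.08, SE 0.14, adjusted p = 0.0102), and dihydroflavonol 4-reductase (LotjaGi5g1v0013400), of the route to anthocyanins and tannins, at 1.28, 1.14 and 1.44 FPKM in Ljasn1-2 and 3.57, 2.71 and 2.35 FPKM in WT (-0.75, SE 0.12, adjusted p = 0.0201). The genotypes were apart for dihydroflavonol 4-reductase and overlapped for phenylalanine ammonia-lyase 1. Of 80 cytochrome P450 genes, 6 fell (7.5%) and 2 rose (2.5%), among them a P450 of the 82A type (LotjaGi2g1v0251800) that stood at 13.5, 13.2 and 19.7 FPKM in Ljasn1-2, against 34.9, 37.2 and 29.4 FPKM in WT (-1.10, SE 0.16, adjusted p = 0.0152).

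Of the joint list of 60 glutathione S-transferase and glutaredoxin genes, 6 rose (10%) and 4 fell (6.67%), beside 2.08% and 2.39% of all genes. Those that rose included monothiol glutaredoxin-S2 (LotjaGi6g1v0306900), at 4.35, 6.61 and 5.87 FPKM in Ljasn1-2 and 2.24, 2.26 and 1.80 FPKM in WT (1.08, SE 0.13, adjusted p = 0.00759), and -S6 (LotjaGi1g1v0768300), which rose by 1.04. In Arabidopsis, small glutaredoxins of this class respond to nitrate and cytokinin. Glutaredoxin-C9 (LotjaGi6g1v0327600) fell by 0.59. Class III peroxidases, secreted enzymes that act in the cell wall, rose in 6 (10.7%) and fell in 2 (3.57%) of 56 cases. Peroxidase N (LotjaGi4g1v0311300) stood at 190, 124 and 87.4 FPKM in Ljasn1-2 and 97.4, 83.7 and 55.1 FPKM in WT (0.73, SE 0.09, adjusted p = 0.0102), and cationic peroxidase 1 (LotjaGi1g1v0453400) at 2.06, 2.58 and 1.14 FPKM in Ljasn1-2 and 5.36, 7.72 and 5.54 FPKM in WT (-1.32, SE 0.12, adjusted p = 0.00354). The iron superoxide dismutase of plastids (LotjaGi5g1v0257700) fell to 22.2, 20.7 and 10.1 FPKM in Ljasn1-2, against 54.9, 62.7 and 28.6 FPKM in WT (-1.41, SE 0.08, adjusted p = 0.00111). Of the 43 genes for superoxide, peroxide and ascorbate enzymes, 3 fell (6.98%) and 1 rose (2.33%).

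Of 99 auxin genes, 8 rose (8.08%) and 3 fell (3.03%), beside 2.08% and 2.39% of all genes, and 6 of the 8 are named after the soybean auxin-induced (SAUR) genes, a family of short transcripts induced by auxin within minutes. Auxin-induced protein 10A5 (LotjaGi3g1v0518400_LC) stood at 15, 22.7 and 14.7 FPKM in Ljasn1-2, against 8.55, 12.6 and 6.98 FPKM in WT (0.84, SE 0.08, adjusted p = 0.00430). Such genes are near copies of each other, so that reads may have been shared among them. Of 42 cytokinin genes, 2 rose and 2 fell (4.76% each). Those that rose were the phosphoribohydrolase LOG3 (LotjaGi1g1v0690800, 0.53) and cytokinin dehydrogenase 3 (LotjaGi4g1v0309900, 0.36). Zeatin O-glucosyltransferase (LotjaGi1g1v0031000), which stores cytokinin as a glucoside, stood at 13.5, 12.8 and 10 FPKM in Ljasn1-2, against 25.4, 26.7 and 22.3 FPKM in WT (-0.98, SE 0.08, adjusted p = 0.00267), and the response regulator ARR3 (LotjaGi2g1v0313200) fell by 0.46. Of 81 genes of a joint list of abscisic acid genes and protein phosphatases 2C, 4 fell (4.94%) and none rose. Over all tested members, 52 had a log2 fold change above 0 and 29 below, with a median of 0.06. The list takes phosphatases by name, whether or not they act on this hormone. The genes that fell were 2 for such phosphatases and 2 for abscisic acid 8'-hydroxylases, which break the hormone down. Of the hydroxylase genes, LotjaGi4g1v0120900 stood at 1.72, 1.73 and 0.927 FPKM in Ljasn1-2 and 4.82, 5.42 and 4.27 FPKM in WT (-1.26, SE 0.10, adjusted p = 0.00267), and LotjaGi3g1v0120800 fell by 0.55.

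Of 245 cell wall genes, 15 fell (6.12%) and 4 rose. Beside the polygalacturonase that rose, 2 adjacent xyloglucan endotransglucosylase genes changed, for enzymes that cut and rejoin wall polymers in growing tissue. LotjaGi4g1v0298900 stood at 41.2, 12.1 and 5.73 FPKM in Ljasn1-2 and 76.8, 25.1 and 13.3 FPKM in WT (-0.99, SE 0.08, adjusted p = 0.00256), and LotjaGi4g1v0299000 fell by 0.83. Both spread more than 3-fold over replicate numbers in either genotype and were lower in the mutant in each pair. A pectinesterase (LotjaGi6g1v0071000) stood at 7, 8.21 and 6.08 FPKM in Ljasn1-2, against 16.3, 14.3 and 14.5 FPKM in WT (-0.99, SE 0.10, adjusted p = 0.00545).

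Of 45 genes of iron and zinc transport and storage, 5 fell (11.1%, beside 2.39% of all genes) and none rose, among them a nicotianamine synthase (LotjaGi1g1v0748300), which makes a chelator of iron and zinc, at 65.1, 58.9 and 34.6 FPKM in Ljasn1-2 and 83.5, 91.2 and 61.0 FPKM in WT (-0.59, SE 0.10, adjusted p = 0.0211), and ZINC INDUCED FACILITATOR-LIKE 1 (LotjaGi3g1v0101900), which fell by 0.80. The aquaporin gene TIP2-1 (LotjaGi3g1v0368200), for a channel of the vacuole membrane that in Arabidopsis passes water and ammonia, was among the most abundant of the named genes and rose to 2170, 1848 and 1100 FPKM in Ljasn1-2, against 1261, 1304 and 834 FPKM in WT (0.56, SE 0.11, adjusted p = 0.0345). Another TIP2-1 gene (LotjaGi3g1v0019700) rose by 0.52 and PIP2-6 (LotjaGi3g1v0532700), of the plasma membrane, fell by 0.59, of 24 aquaporin genes tested. Of 196 genes of the cell cycle and DNA replication 1 rose (0.51%, beside 2.08% of all genes) and 2 fell, of 43 histone genes 1 rose (2.33%), a histone H1 (LotjaGi2g1v0382800) at 247, 225 and 144 FPKM in Ljasn1-2 and 138, 134 and 101 FPKM in WT (0.70, SE 0.09, adjusted p = 0.00962), and of 279 ribosomal protein genes 1 rose and 1 fell. Most ribosomal protein genes, 236 of 279, had a fold change below 0, with a median of -0.13. Of 261 F-box genes, 6 rose and 6 fell (2.3% each).

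**Figure D3:**
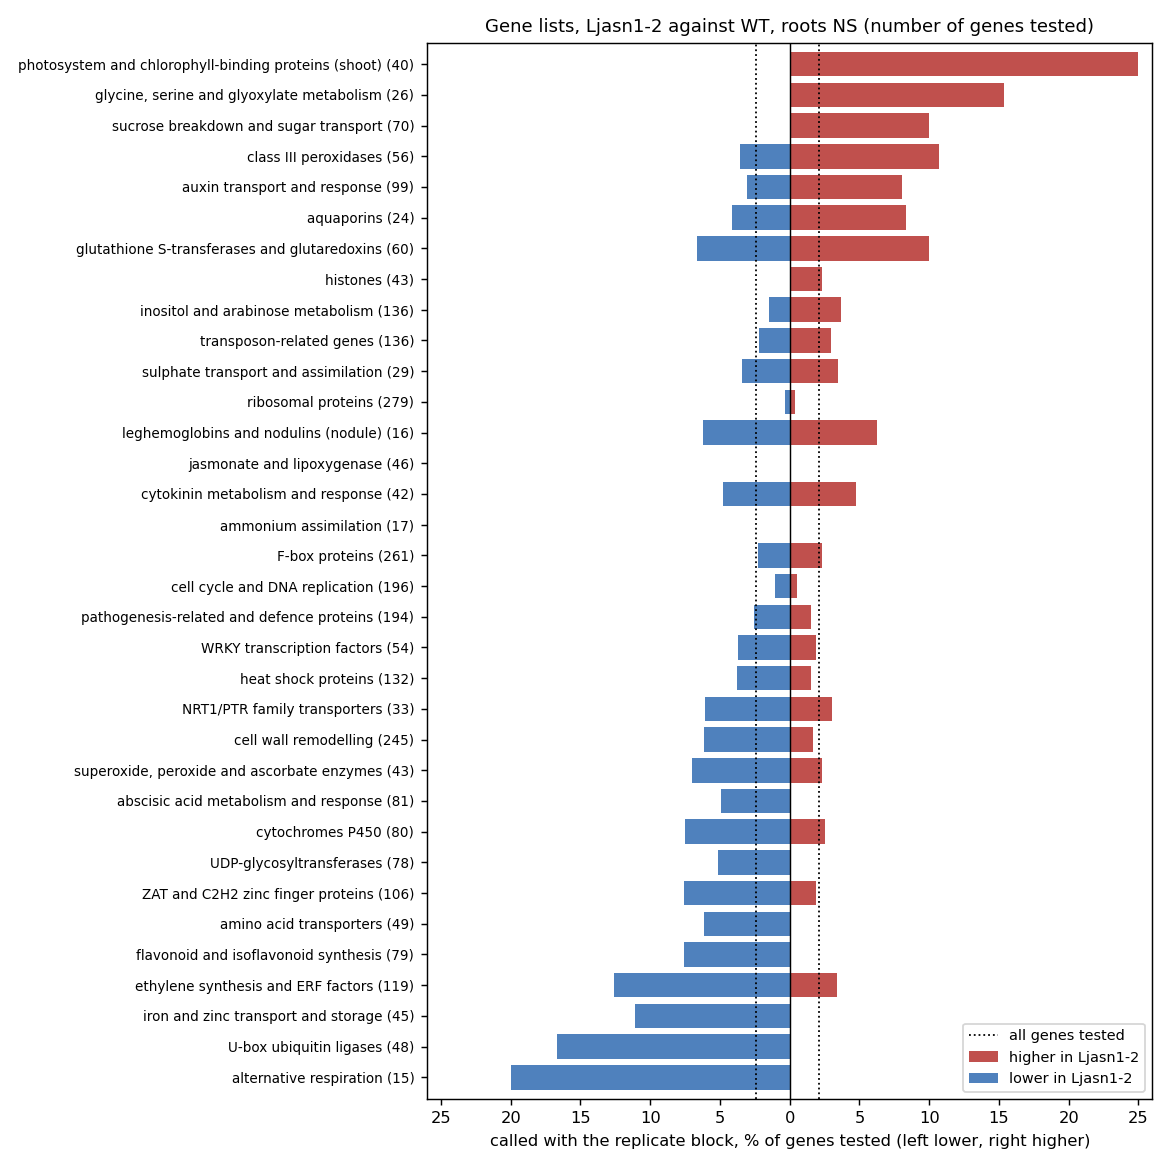
Share of tested genes that passed with the replicate block, in percent, for each gene list with at least 15 genes tested (number in brackets). Bars to the right are genes higher in Ljasn1-2, bars to the left genes lower in Ljasn1-2, and dotted lines give the shares over all genes tested, 2.08% higher and 2.39% lower. Ethylene and ERF genes, U-box ligases and alternative respiration reach furthest to the left, and the lists at the top lean to the right.

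Markers of root, shoot and nodule tissue were read beside these groups. All 5 genes for casparian strip membrane proteins, which mark the root endodermis, were detected, had a fold change above 0 (median 0.59), and 3 of them rose. Their summed level was 183, 169 and 87.4 FPKM in Ljasn1-2 and 105, 107 and 77.4 FPKM in WT. Genes for photosystem and chlorophyll-binding proteins, which mark shoots, were above 0 in 34 of 40 cases, and 10 rose (25%, beside 2.08% of all genes) and none fell. They summed to 661, 641 and 410 FPKM in Ljasn1-2 and 510, 531 and 332 FPKM in WT, and 14 of the 76 members were at 0 in all 6 libraries. The Rubisco small subunit gene (LotjaGi2g1v0052900) stood at 54.6, 60.0 and 31.6 FPKM in Ljasn1-2 and 24.9, 30.7 and 17.9 FPKM in WT (0.94), although its decimal point, like that of photosystem I subunit N, photosystem II 10 kDa protein and chlorophyll-binding protein 6A, can stand in more than 1 place. The photorespiratory genes above moved with this list, and its part in their result was not tested. Of the 4 leghemoglobin genes, which mark nodules, none exceeded 0.289 FPKM in Ljasn1-2 or 0.746 FPKM in WT, and of the 16 tested genes of the joint list with nodulins 1 rose and 1 fell. In bulk roots, fewer cells of a type and less RNA per cell cannot be told apart.

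Genes that passed lay on all 6 chromosomes in like shares, between 4.23% and 4.76% of the genes tested on each, and none of the 11 genes tested outside the chromosomes passed. Gene models of low confidence made up 9.27% of the genes that passed and 9.26% of all genes tested, with 5.95% among those that rose and 12.1% among those that fell. Of 16165 pairs of neighbouring tested genes, 51 passed together (0.315%), 40 of them in the same direction. There were 3 runs of at least 3 neighbours that moved the same way, and their members are named for their place, after their values were seen. The first is a run of 4 SAUR genes on chromosome 3 (LotjaGi3g1v0518200_LC to LotjaGi3g1v0518500), which rose by 0.39 to 0.84. The second holds LjASN1 with the genes for a MAPKKK17-type kinase (LotjaGi1g1v0118000_LC, -0.86, adjusted p = 0.00927) and a probable protein phosphatase 2C 25 (LotjaGi1g1v0118100). The phosphatase gene stood at 39.0, 22.9 and 19.6 FPKM in Ljasn1-2 and 89.0, 44.9 and 36.2 FPKM in WT (-0.99, SE 0.08, adjusted p = 0.00295). Within 1 Mb on either side of LjASN1, 4 of 55 tested genes passed, beside 4.47% of all genes, and the median fold change was 0.01. The third run holds PHOSPHATE-INDUCED 1 (LotjaGi1g1v0144800, -0.93), EXORDIUM (LotjaGi1g1v0144900, -1.12), both of a family that in Arabidopsis is linked to growth by cell expansion, and a glucosyltransferase (LotjaGi1g1v0145400, -0.54).

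A description chosen after the data were seen was that of genes read in only 1 genotype. Of the 30243 genes, 10 had at least 10 reads in each NS root library of one genotype and 0 in all 3 of the other, and all 10 are low-confidence models. A gene described as a Pol polyprotein of transposon TNT 1-94 (LotjaGi2g1v0357500_LC, chromosome 2, 83354382 to 83355127, plus strand) had 103, 96 and 180 reads in Ljasn1-2 roots and none in WT, which makes it at least 35.8-fold higher in Ljasn1-2 against a floor of 3 reads per WT library. It had 0 reads in all 12 WT libraries of the series, and 136 to 195 reads over the 3 mutant libraries in each of the other 3 tissues and conditions. The other 9 genes were read in WT only. A gene described as secretory carrier-associated membrane protein 1 (LotjaGi1g1v0742400_LC) had 0 reads in the mutant roots and 131, 64 and 174 reads in WT roots, and was at least 35.8-fold lower in Ljasn1-2. LotjaGi3g1v0243700_LC, LotjaGi6g1v0043300_LC and LotjaGi2g1v0372800_LC had 0 reads in all 12 mutant libraries, while WT roots had 55, 52 and 41 reads, 83, 30 and 46 reads, and 58, 27 and 28 reads of them. Floors and folds of this kind cover counting error only. Of all 136 tested genes related to transposons, 4 rose and 3 fell.

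**Figure D4:**
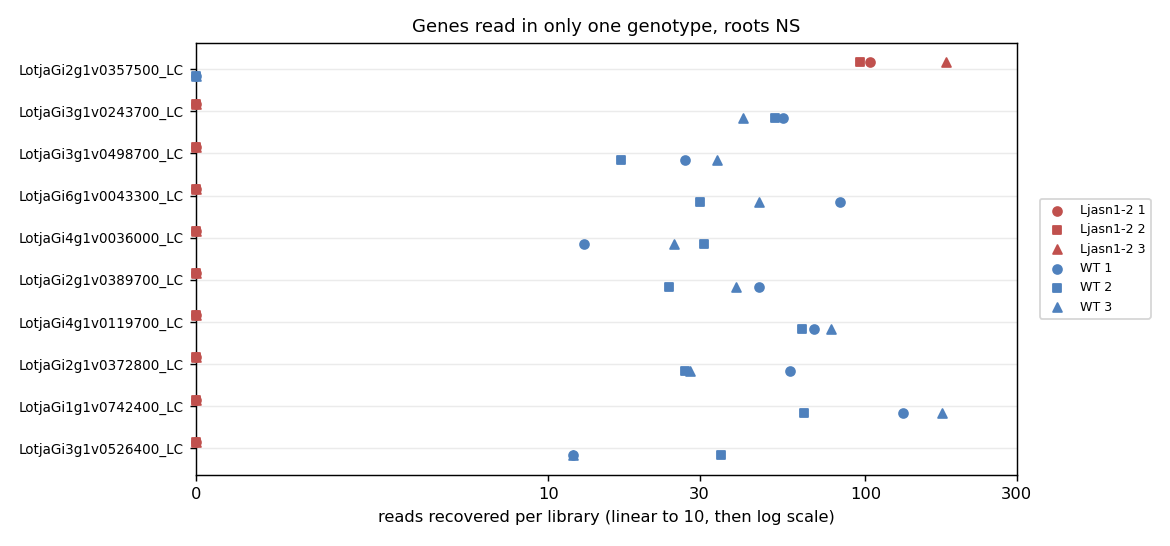
Reads per library of the 10 genes with at least 10 reads in each NS root library of one genotype and 0 in the other (horizontal axis linear up to 10 reads, then logarithmic). LotjaGi2g1v0357500_LC lies between 96 and 180 reads in Ljasn1-2, and the other 9 genes have 12 to 174 reads in WT libraries and 0 in the mutant.

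The same comparison in symbiotic roots used separate libraries. Of the 387 genes that fell in NS roots, 359 were tested in S roots, and 110 also fell there with the block, which is 30.6% of these and 50.7% of the 217 genes that fell in S roots (1.34% of the 16236 genes tested there). A further 2 rose there, and the median log2 fold change was -0.38. Of the 336 genes that rose in NS roots, 307 were tested, and 11 rose (0.265% of all genes tested there) and 5 fell in S roots. The genes that fell in both included 7 of the 8 zinc finger genes, 5 of the 8 U-box genes and 7 of the 15 ethylene and ERF genes. ERF017 stood at 3.64, 3.06 and 0.296 FPKM in Ljasn1-2 S roots, against 41.4, 32.5 and 15.5 FPKM in WT S roots (-3.30, adjusted p = 2.54e-05), PUB21 at 10.3, 6.55 and 2.64 FPKM in Ljasn1-2, against 71.3, 50.7 and 36.3 FPKM in WT (-2.94, adjusted p = 4.53e-05), and CCR4-associated factor 1 homolog 9 at 25.7, 13.7 and 3.93 FPKM in Ljasn1-2, against 133, 87.0 and 47.9 FPKM in WT (-2.74, adjusted p = 2.36e-04).

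The interaction of genotype and condition asks whether the genotype difference itself differs between NS and S roots, which by the methods also differ in age. Without the block none of 17283 genes passed, with 751 at an unadjusted p under 0.05 and 1 by voom on the recovered reads, whereas with the block 183 did (1.06%). The clearest were Lea5, which rose in NS roots and stood at 35.3, 25.1 and 22.5 FPKM in Ljasn1-2 and 46.0, 48.2 and 29.0 FPKM in WT S roots (a difference between NS and S of 2.12, adjusted p = 0.0172 with the block and 0.330 without), and TERMINAL FLOWER 1 (LotjaGi1g1v0676500), a regulator of meristem identity, at 3.05, 2.94 and 3.18 FPKM in Ljasn1-2 and 2.82, 5.33 and 2.40 FPKM in WT NS roots and 6.14, 6.56 and 3.77 FPKM in Ljasn1-2 and 32.2, 35.7 and 27.0 FPKM in WT S roots (2.25, adjusted p = 0.0172 and 0.330). Dehydrogenase B2 fell less in S roots (-0.79) than in NS roots (-1.83), a difference of -1.04 (adjusted p = 0.0191 and 0.330). LotjaGi6g1v0120900_LC and LotjaGi1g1v0351100_LC completed the 5 genes of smallest p, with differences of -1.20 and -0.85. LotjaGi1g1v0351100_LC was listed at 0 in all 6 NS root libraries.

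Between roots and shoots of NS plants the genotype difference itself differed for 52 of 17903 genes (0.290%) without the block, and for 454 (2.54%) with it. Several genes that fell in Ljasn1-2 roots stood higher in Ljasn1-2 shoots. Dehydrogenase B2 was at 9.48, 7.88 and 9.50 FPKM in Ljasn1-2 shoots, against 1.40, 1.38 and 0.970 FPKM in WT shoots (2.15), so that roots and shoots differed by -3.98 (adjusted p = 7.80e-07 without the block). NFXL1 was at 58.3, 50.4 and 70.6 FPKM in Ljasn1-2 shoots, against 6.66, 7.23 and 9.91 FPKM in WT shoots (2.77, a difference of -4.85, adjusted p = 2.29e-05). The P450 of the 82A type was at 166, 156 and 191 FPKM in Ljasn1-2 shoots, against 36.6, 32.1 and 22.5 FPKM in WT shoots (2.48, a difference of -3.57, adjusted p = 1.49e-04). Dehydrogenase A1 likewise differed by -2.55 and the alternative oxidase by -1.83 (adjusted p = 4.82e-04), both lower in mutant roots and higher in mutant shoots, and the ABC transporter C family member 3 (LotjaGi1g1v0018700) by -2.47, with a shoot difference of 2.39 and a root level below 1 FPKM in both genotypes. Of the 387 genes that fell in NS roots, 20 fell and 15 rose among the 278 tested in NS shoots, where 0.712% of all genes fell and 1.01% rose, and of the 336 that rose, 18 rose and 4 fell among 271.

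**Figure D5:**
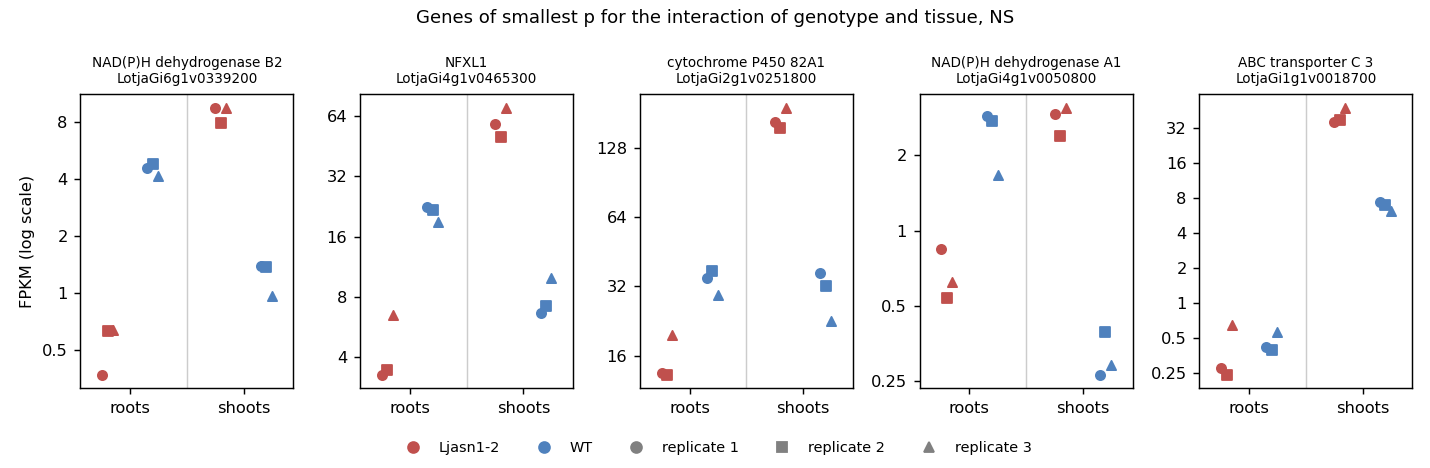
Level in FPKM (logarithmic axes) of the 5 genes of smallest p for the interaction of genotype and tissue, in roots (left) and shoots (right) of NS plants, with Ljasn1-2 in red and WT in blue and symbols for replicate numbers. For dehydrogenases B2 and A1, NFXL1 and the P450 of the 82A type the mutant is below WT in all root libraries and above it in all shoot libraries.

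In both tissues and both conditions, 10 genes changed in the same direction with the block, 6 of them higher and 4 lower, beside 0.131% and 0.256% of all genes in S shoots, and they are named for this pattern. Next to LjASN1 they were the GPI-anchored protein, the plastidic glucose transporter, LotjaGi4g1v0295400_LC, LotjaGi1g1v0056500_LC, LotjaGi2g1v0153600_LC and the Pol polyprotein gene LotjaGi2g1v0357500_LC, which rose, and LotjaGi1g1v0431600, a Pol polyprotein gene of transposon RE1 (LotjaGi6g1v0015200) and the F-box gene LotjaGi3g1v0340500, which fell. The plastidic glucose transporter gene rose by 1.64 in NS roots, 1.71 in NS shoots, 1.26 in S roots and 1.65 in S shoots, and the GPI-anchored protein gene by 3.06, 3.35, 2.78 and 3.17.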

How the data were processed

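Polyadenylated RNA of roots and shoots was sequenced from strand-specific dUTP libraries, 3 per group, 8 groups and 24 libraries in all. Per the submitters' processing notes, fastp, featureCounts 1.5.0-p3 and DESeq2 1.20.0 were used, and the aligner is not given in the sources used here. The deposited FPKM values of 1 or more had lost their decimal point (384363 of 725832 values, 53%), so that the authors' FPKM score had to be rebuilt. Each point was put back where the value gave a whole number of reads of the gene, which succeeded for all values to within a relative distance of 5.4e-15. Since 10 times a whole number is whole too, the place was chosen by the closeness of replicates and the order of rows. This set 16114 values at 10 times the smallest whole number and 190 higher, 4124 of these values in NS roots. The spread between replicates is thus not independent of the placement for them. Another placement is possible for 62 genes (16 of them among the 723 genes called with the block). On simulated data that had lost 384454 points, 0 were restored to another number. Simulated replicates spread around 1 mean per group, with 25 genes marked as having another possible placement. The simulation therefore does not give the error for genes whose replicates differ more. No column of values was without a sample (0 left out). Columns of the authors' own comparisons were not used.

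limma 3.58.1 (R 4.3.3) was fitted to log2(FPKM + 1) of the 6 NS root libraries, with a trend, two-sided, over genes that reached 1 FPKM in 3 or more of these libraries and with Benjamini-Hochberg adjustment over all of them (threshold 0.05). The test assumed FPKM as deposited, and the restored values took their place. Interactions used 12 libraries each. On simulated data of 16233 genes, this comparison recovered 34% of 2-fold and 100% of 4-fold changes without the block and 99% and 100% with it. The simulation gave same-numbered libraries a shared effect, so the block was set up to recover more there. Changed genes were taken from those with a mean of at least 3 FPKM and with 1 FPKM or more in all 6 libraries. The recovered shares therefore do not cover genes of lower level. False calls in the simulation are not reported here. Same-numbered libraries of NS roots deviated together from their group means (r = 0.67, 0.61 and 0.84), and so the replicate number was also fitted as a block. The check came from the data, as the labels do not say what a number stands for. In S shoots this correlation did not exceed 0.1 in 1 of 3 pairs. Alternatives were a pseudocount of 0.1, no filter or at least 5 FPKM, quantile normalization, voom on recovered reads, all 24 libraries, and libraries left out. Intervals and floors cover counting error only.

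Genes are named where they are LjASN genes, where they passed without the block, where they are among the 12 largest changes in each direction with the block and no overlap (without genes whose decimal point can stand in more than 1 place), where they are among up to 4 members of smallest p of a list (or the most abundant member where none passed), or where they are among the 5 of smallest p in an interaction. Lists were made from words in the deposited descriptions. Members, lists and tests were chosen with earlier results of these data known. LjG1.1 coordinates are those of the deposited table, and primers are those of the study. Figures were drawn with matplotlib 3.10.9.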

Additional observations from a re-analysis of the deposited data

Results flagged for a closer look

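For 5 genes the interaction of genotype and tissue in NS plants had the smallest p-values, with opposite directions in roots and shoots in 4 of them. Differences are log2 fold changes of Ljasn1-2 over WT in roots minus those in shoots. Dehydrogenase B2 (LotjaGi6g1v0339200) gave -3.98, NFXL1 (LotjaGi4g1v0465300) -4.85, the P450 of the 82A type (LotjaGi2g1v0251800) -3.57 and dehydrogenase A1 (LotjaGi4g1v0050800) -2.55. The ABC transporter C family member 3 (LotjaGi1g1v0018700) gave -2.47, with a root difference of -0.08 and a shoot difference of 2.39. Limma adjusted p without the block lay between 7.80e-07 and 1.49e-04.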

How the results depend on the processing

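The count of 7 genes was 723 with the replicate block, 918 by voom with the block and 106 with all 24 libraries in the fit, and 603, 511 and 595 with the block and without replicate 1, 2 or 3. It lay between 5 and 9 under the other settings that kept all 6 libraries, and between 0 and 9 when 1 library was left out. LjASN1 (-3.08) kept its direction throughout, but missed the threshold with no filter (-3.08, adjusted p = 0.0997), under quantile normalization (-3.01, 0.0938) and by voom (-3.10, 0.0529), with a range of -3.42 to -2.84 when 1 library was left out. The interaction with tissue gave 454 genes with the block and 26 by voom, against 52, and 33 to 57 without single libraries. The interaction with condition gave 183 with the block and 1 by voom, against 0, and 0 to 1 without single libraries. Of 2404 values of 141 named genes under 18 settings, 1814 kept their side of the threshold, 559 passed only under the alternative, 22 passed only in the fit as reported, and 9 reversed sign, in 7 genes of which 1 had passed with the block. With the block and without 1 number, LotjaGi6g1v0088100 stood at -0.003, LotjaGi6g1v0055300 at 0.09 and LotjaGi1g1v0676500 at 0.19. Without single libraries, LotjaGi6g1v0130800 ran between -0.01 and 0.43, LotjaGi6g1v0055300 between -0.26 and 0.23, LotjaGi6g1v0009500 between -0.38 and 0.04, LotjaGi3g1v0420400 between -0.20 and 0.007, LotjaGi1g1v0366800 between -0.73 and 0.05 and LotjaGi1g1v0676500 between -0.28 and 0.17. The cause of these changes was not tested. Of 702 list medians, 616 moved by less than the spread of the 3 pairs. With 3 libraries per genotype the fit without the block recovered few of the simulated 2-fold changes, so genes that did not pass are not shown to be unchanged.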
